A study of Mus musculus with 30 samples.

Results

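Gng13, Lgr5 and Irx3 are 3 genes whose transcripts reached far higher levels late in the fetal mouse ovary than at its start. They were chosen by measured values, for large stepwise rises in this same course of ages, so their differences between ages are given as a description with no test. All probe sets (the groups of short probes that stand for 1 transcript on an array) bearing these symbols were taken. There were 4 of them among 36701 probe sets on the arrays, and the 3 genes are 3 of 15964 genes with a probe set of their own. Irx3 had 1 probe set on array A, Gng13 had 1 on array C, and Lgr5 had 1 on array A and 1 on array C.

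The study followed the embryonic ovary at 5 ages, 11.5, 12.5, 14.5, 16.5 and 18.5 days post coitum (dpc). Each age had 2 numbered samples of total RNA from pooled ovaries of BL/6-129 mice, a mixed background shared by all groups, and 11.5 and 12.5 dpc gonads were sexed by PCR for Sry. Each sample was measured on 3 array types (A, B and C) with different probe sets, 30 arrays in all. The labels do not say whether the samples of one age came from separate pools, so p-values measure no more than how far these samples scatter, and that scatter may be technical. Whole ovaries were measured, so a lower signal from fewer cells of a type and one from less RNA per cell cannot be told apart, and the values do not tell which cells held a transcript.

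Gng13 encodes a gamma subunit of heterotrimeric G proteins, best known from taste cells and olfactory neurons, where beta and gamma subunits pass on signals from receptors at the membrane. Lgr5 encodes a membrane receptor for R-spondins. R-spondins bound to Lgr receptors keep the E3 ligases Rnf43 and Znrf3 from removing Wnt receptors, and so strengthen signalling through beta-catenin; Lgr5 is also a known marker of stem cells in the gut and of the ovarian surface. Irx3 encodes a homeodomain transcription factor of the Iroquois family, which lies in a gene cluster with Irx5 and Irx6 and is known from the supporting (pregranulosa) cells of the fetal ovary. Rspo1 and Wnt4, which act through beta-catenin, are needed for the supporting cells to take the ovarian path.

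Upstream sequence is shown for the members found in a RefSeq promoter table (GRCm38.p6), 2 of the 3, because they differ in their content of CpG, a feature common in promoters of developmental regulators. Each run is the 250 bases before the annotated start, read 5′ to 3′ on the gene's strand, and capitals mark each CpG.
Gng13, chr17:25716922-25717171, plus strand: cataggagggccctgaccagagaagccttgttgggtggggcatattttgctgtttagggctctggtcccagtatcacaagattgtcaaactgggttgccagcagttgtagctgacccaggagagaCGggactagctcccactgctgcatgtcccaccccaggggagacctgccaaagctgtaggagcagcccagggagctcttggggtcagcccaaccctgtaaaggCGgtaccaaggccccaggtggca
Irx3, chr8:91801655-91801904, minus strand: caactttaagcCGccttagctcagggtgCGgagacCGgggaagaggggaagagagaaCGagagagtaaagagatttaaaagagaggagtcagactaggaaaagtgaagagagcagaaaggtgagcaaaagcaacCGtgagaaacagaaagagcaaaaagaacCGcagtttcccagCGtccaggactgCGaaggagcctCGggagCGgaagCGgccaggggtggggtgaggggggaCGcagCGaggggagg
The Gng13 window, taken at the outer of 2 annotated starts, held 2 CpG and was 58.8% G or C. The Irx3 window held 13 CpG and was 56.0% G or C. Across 32851 windows of this length the medians were 6.0 CpG and 52.4% G or C, and 18.8% of windows held fewer CpG than Gng13 against 68.5% for Irx3. The motifs searched on both strands were CTTTGAT for the TCF/LEF partners of beta-catenin, AAGGTCA for Nr5a1, AGATAA for GATA factors and GTAAACA for forkhead factors such as Foxl2. They occur in 3.2%, 4.1%, about 10% (3281 windows) and 3.2% of all windows, in that order. None of these letters was found in either window, which says only that they are not there. Lgr5 had no entry in the table.

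Irx3 was the first of the 3 genes to reach a high signal. Its signals, in scaled intensity units, were 33.7 and 63.2 at 11.5 dpc, 331.6 and 214.4 at 12.5 dpc, 431.4 and 354.1 at 14.5 dpc, 656.2 and 648.4 at 16.5 dpc, then 527.0 and 524.6 at 18.5 dpc. Both samples of 12.5 dpc lay above both of 11.5 dpc, and the samples of 16.5 dpc were the highest. On the log2(signal + 16) scale used here for every difference and fold, the mean was 2.17 higher at 12.5 than at 11.5 dpc, which is 69.9% of the whole difference of 3.11 (SE 0.24; 8.64-fold) between 11.5 and 18.5 dpc. The next intervals added 0.52 and 0.72, and the last was -0.30. The mean signal at 18.5 dpc, 525.8 ± 1.7 (SD, n = 2), was 80.6% of that at 16.5 dpc, 652.3 ± 5.5.

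Lgr5 followed later. Its array A probe set read 9.3 and 8.3 at 11.5 dpc, 22.4 and 17.9 at 12.5 dpc, 122.8 and 89.8 at 14.5 dpc, 159.3 and 204.5 at 16.5 dpc, then 166.9 and 179.8 at 18.5 dpc. All samples of 11.5 and 12.5 dpc were low, below the signal of 50 used as a minimum for testing, and all later samples were above it. The interval from 12.5 to 14.5 dpc held 1.75 of the whole log2 difference of 2.93 (SE 0.22; 7.63-fold), or 59.6%. The interval before it held 0.54, the one after it 0.70, and the last -0.06. Because the early signals were near the offset of 16, the fold is compressed: with an offset of 4 the whole difference was 3.79, and with 64 it was 1.71.

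The other Lgr5 probe set, on array C, did not reach the minimum in any sample. It read 31.5 and 3.7 at 11.5 dpc, 1.2 and 0.5 at 12.5 dpc, 5.0 and 11.1 at 14.5 dpc, 27.1 and 21.9 at 16.5 dpc, then 26.6 and 7.5 at 18.5 dpc. The samples of 11.5 dpc spanned almost the whole range of the probe set, so the ages overlapped and this probe set does not show the course. Its name carries the suffix r, which the maker gives to probe sets for which some of the probe selection rules were dropped. The course of Lgr5 described here therefore rests on 1 probe set.

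Gng13 had the largest difference of the 3. Its signals were 31.5 and 48.9 at 11.5 dpc, 129.0 and 64.6 at 12.5 dpc, 536.3 and 351.4 at 14.5 dpc, 766.1 and 2061.6 at 16.5 dpc, then 1451.3 and 1545.3 at 18.5 dpc. Each age up to 16.5 dpc was above the one before it in both samples, and the ages 16.5 and 18.5 dpc overlapped. The intervals held differences of 1.95-fold, 4.17-fold, 2.83-fold and 1.19-fold, and the whole log2 difference was 4.77 (SE 0.42; 27.3-fold). Both samples of 11.5 dpc lay under the minimum of 50, so the size of the fold depends on the offset: the whole difference was 5.12 with an offset of 4 and 3.91 with 64. The rise was thus spread over more of the course than in Irx3 or Lgr5, with 43.2% of it between 12.5 and 14.5 dpc and 31.5% between 14.5 and 16.5 dpc. The 16.5 dpc samples differed 2.69-fold from each other, so the order of the last ages is not settled: the mean difference of 18.5 minus 16.5 dpc was -0.46 without sample 1 of 16.5 dpc and 0.95 without sample 2. For Lgr5 the same difference was -0.22 without sample 1 of 16.5 dpc and 0.11 without sample 2.

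**Figure D1:**
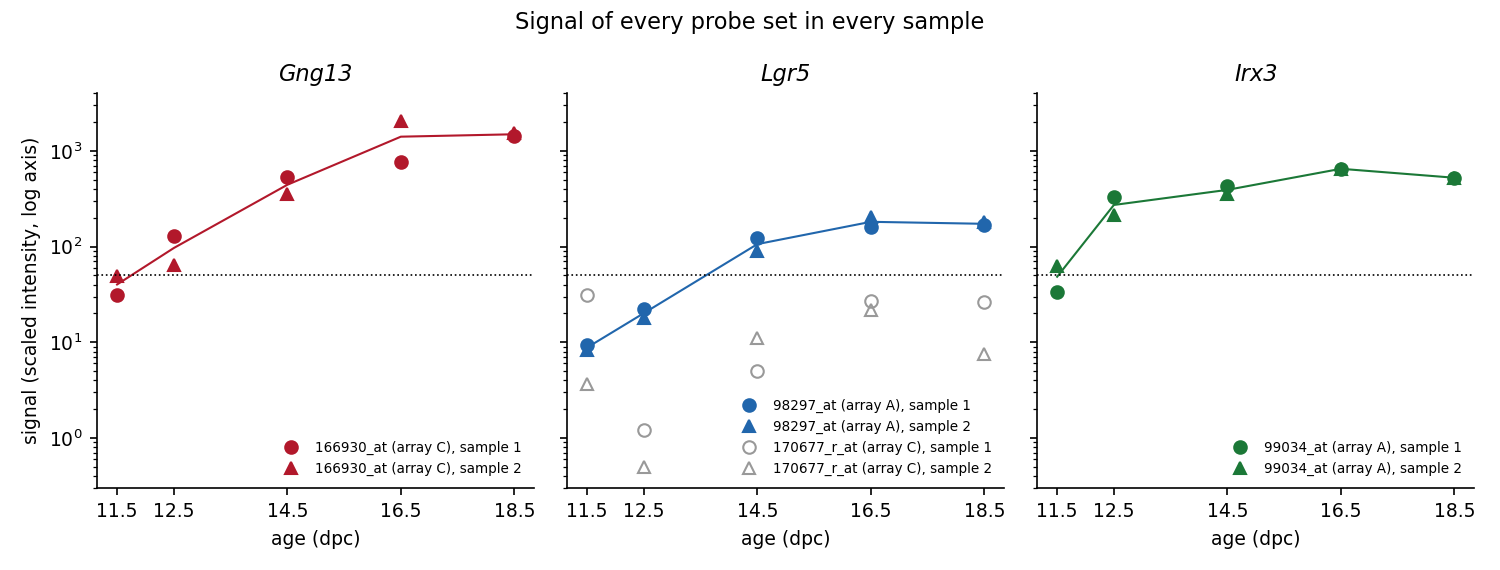
Signal of every probe set of Gng13, Lgr5 and Irx3 (scaled intensity, log axis) against age in dpc. Circles are sample 1, triangles sample 2, lines the mean of the 2 samples, open grey symbols the low Lgr5 probe set of array C, and the dotted line the signal of 50. Irx3 is already above 200 at 12.5 dpc, Lgr5 passes 50 only at 14.5 dpc, and the Gng13 samples part at 16.5 dpc.

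For all 3 genes, both samples of the later age lay above both of the earlier age in each of the 3 intervals up to 16.5 dpc, and in none of the 3 from 16.5 to 18.5 dpc. The choice of the genes fixes this pattern, so nothing is read from it. Over all 12589 genes tested, the share with both later samples above both earlier ones was 21.1% for 12.5 against 11.5 dpc, 25.9% for 14.5 against 12.5 dpc, 24.6% for 16.5 against 14.5 dpc, 23.9% for 18.5 against 16.5 dpc and 30.7% for 18.5 against 11.5 dpc. The place of each gene among the probe sets of its own array gives its level without comparing arrays. The Gng13 probe set lay above 37.9% of the probe sets of array C at 11.5 dpc and above 98.8% at 18.5 dpc. The Irx3 probe set lay above 48.8% of array A at 11.5 dpc, 85.9% at 12.5 dpc and, by 18.5 dpc, 94.1%. The Lgr5 probe set lay above 17.6% at 11.5 dpc, 65.2% at 14.5 dpc and 76.4% at 18.5 dpc, and so ended lower in its array than the other 2 in theirs. Probe sets differ in how brightly they bind, so this order is not one of transcript number.

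Foxl2 and Fst, a transcription factor and the activin antagonist follistatin, are known genes of the ovarian supporting cells and serve as landmarks for the timing. Foxl2 read 94.5 and 89.5 at 11.5 dpc, 242.9 and 92.8 at 12.5 dpc, 374.4 and 327.7 at 14.5 dpc, 792.5 and 858.4 at 16.5 dpc, then 667.4 and 793.3 at 18.5 dpc. At 12.5 dpc the mean of Irx3 was 41.9% of its highest age mean, against 20.3% for Foxl2, 11.1% for Lgr5 and 6.5% for Gng13. At 14.5 dpc Irx3 and Lgr5 were at 60.2% and 58.4%, Foxl2 at 42.5% and Gng13 at 29.6%. On its brightest probe set Fst did not climb steadily. It stood at 85.3% of its highest mean at 12.5 dpc, 42.2% at 14.5 dpc and at its highest at 16.5 dpc. With 2 samples an age, the order at 14.5 dpc of Irx3 and Lgr5 is within their spread, since the samples of Irx3 read 431.4 and 354.1 and those of Lgr5 122.8 and 89.8.

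**Figure D2:**
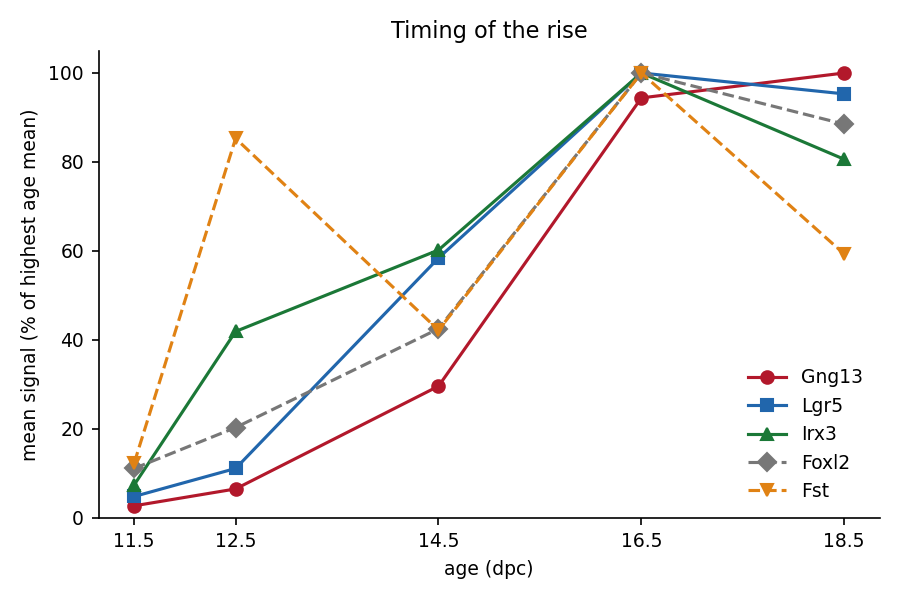
Mean signal at each age as a percentage of the gene's highest age mean (n = 2 samples an age), for Gng13, Lgr5 and Irx3 (solid) and the supporting cell genes Foxl2 and Fst (dashed). At 12.5 dpc Irx3 is at 41.9% and Gng13 at 6.5%, and from 16.5 dpc all 3 are above 80% of their highest mean.

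Among the partners of Lgr5, the ligand gene Rspo1 rose over the course. It read 81.0 and 81.7 at 11.5 dpc, then 177.6 and 181.4 at 18.5 dpc, a 2.01-fold rise (log2 1.01, SE 0.20; limma adjusted p = 0.0059). The samples of the ages between lay from 100.8 to 182.2. Of 8 genes listed as R-spondins, Lgr receptors and their E3 ligases, 6 had a probe set and 4 were tested; 1 rose from 11.5 to 18.5 dpc, none fell, and the median log2 difference was 0.41. Over all genes tested, 9.14% rose and 8.37% fell in that comparison, with a median of 0.02. In this and every count of listed genes below, a gene stands by its brightest tested probe set, and further probe sets are given for genes named where they bear on the call. None of the 4 was called by limma between neighbouring ages.

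The relatives of Lgr5 did not show its course. Lgr4, a receptor for the same ligands, was bright from the start, at 3909.4 and 3247.2 at 11.5 dpc, then 2454.0 and 2359.0 at 18.5 dpc (log2 difference -0.56, SE 0.20; limma adjusted p = 0.082). Its dim probe set on array C had 0.79 (SE 0.69), not called. Lgr6 read between 43.8 and 112.5 in all samples, with a difference of -0.10 (SE 0.32). The ligase gene Rnf43 had 35.8 and 73.0 at 11.5 dpc, then 112.2 and 114.5 at 18.5 dpc, a difference of 0.93 (SE 0.30) that missed the threshold (limma adjusted p = 0.054). The ligands Rspo2 and Rspo3 stayed below the minimum in every sample, with highest signals of 39.1 and 13.0. Rspo4 and Znrf3 had no probe set bearing their symbol.

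Among the Wnt lists, the largest called rise was in the targets of beta-catenin. Of 15 listed genes, 14 had a probe set and 11 were tested; 3 rose from 11.5 to 18.5 dpc, none fell, and the median log2 difference was 0.38. Cd44, a receptor for hyaluronan, rose 5.13-fold (limma adjusted p = 3.84e-05), from 44.3 and 68.3 at 11.5 dpc to 344.7 and 354.3 at 18.5 dpc. Its largest interval was that of Lgr5, 12.5 to 14.5 dpc, where it rose 3.55-fold (limma adjusted p = 0.0011), from 53.8 and 60.3 to 253.5 and 232.4. Cd44 was the only one of the 11 called there, against 1.6% of all genes tested that rose and 0.564% that fell. Both calls held with each sample left out in turn, and a dimmer Cd44 probe set was called in both comparisons. A dimmer probe set of Bmp4, another listed target, fell from 11.5 to 18.5 dpc (-1.98; limma adjusted p = 0.0061).

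The other 2 targets that rose were Tnfrsf19, a receptor of the tumour necrosis factor family, and Nkd2, an inhibitor of Wnt signalling. Tnfrsf19 rose 2.30-fold (limma adjusted p = 0.014) and Nkd2 3.75-fold (limma adjusted p = 0.023), and without sample 1 of 11.5 dpc or either sample of 18.5 dpc each lost its call, which left 1 of the 11. A further probe set of each was also called, at 2.77-fold for Tnfrsf19 and 2.53-fold for Nkd2. Axin2, a widely used readout of the pathway, had 151.0 and 195.1 at 11.5 dpc, then 288.7 and 264.6 at 18.5 dpc on its brighter probe set (1.56-fold; limma adjusted p = 0.066). The dimmer Axin2 probe set rose by a log2 difference of 1.32 (SE 0.20; limma adjusted p = 0.0012).

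The rest of the pathway was compared between 11.5 and 18.5 dpc, where 9.14% of all genes tested rose and 8.37% fell. Of 13 Wnt ligands and secretion genes tested, 3 rose and none fell: Wnt6 rose 2.10-fold (lost without sample 2 of 18.5 dpc), and Wnt10b 2.54-fold and the secretion factor Wls 1.93-fold, both lost without either 18.5 dpc sample and without 1 sample of 11.5 dpc. A further Wnt6 probe set rose 1.95-fold (limma adjusted p = 0.048), but those of Wls (-0.04, SE 0.19) and Wnt10b (-0.26, SE 0.51) did not show the rise. For Wnt5a, 2 dimmer probe sets fell, 3.60-fold (limma adjusted p = 0.00081) and 1.90-fold (limma adjusted p = 0.032), and 1 more had -0.06 (SE 0.33). Wnt4 had a difference of -0.41 (SE 0.27) on a probe set with the suffix r. Of 14 Wnt receptors tested, Fzd6 rose 2.20-fold and Fzd7 fell 3.50-fold, and each call was lost without sample 2 of 11.5 dpc or sample 2 of 18.5 dpc, that of Fzd6 also without sample 1 of 18.5 dpc. The other Fzd7 probe set had 0.50 (SE 0.27), the other direction, and was not called. Dimmer probe sets fell for Fzd4, 1.77-fold and 3.37-fold, and for Fzd8, 2.35-fold (limma adjusted p = 0.035, 0.015 and 0.045), while another of Fzd8 had 0.08 (SE 0.19). Of 20 genes of the beta-catenin relay tested, 5 fell and none rose. Tcf7l1, a DNA-binding partner of beta-catenin that mostly represses, fell 2.49-fold (limma adjusted p = 0.0046) with every sample left out in turn and on its other probe set (2.30-fold), while Cby1, Csnk1a1, Csnk1e and Gsk3a each lost the call when 1 or more samples were left out, among them sample 1 of 18.5 dpc. None of the other probe sets of Csnk1a1 (5) and Csnk1e (3) was called in this comparison, and a dimmer probe set of Btrc rose by 0.72. None of 8 secreted or membrane antagonists tested was called by limma in this comparison. Of these, 3 were at an unadjusted p under 0.05, as were 4152 of all 12589 genes tested. Apcdd1 rose 2.00-fold from 12.5 to 14.5 dpc, a call lost without any 1 of the 12.5, 14.5 or 18.5 dpc samples.

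None of the other gamma subunits tested rose. Of 11 listed gamma subunit genes other than Gng13, 9 had a probe set and 6 were tested; none rose from 11.5 to 18.5 dpc and 1 fell, and the median log2 difference was -0.41. Gng2 read 190.9 and 332.3 at 11.5 dpc, then 93.7 and 51.8 at 18.5 dpc, and fell 3.11-fold (limma adjusted p = 0.0076). The call was lost without sample 2 of 11.5 dpc or sample 2 of 18.5 dpc. Of its other probe sets, 1 fell 3.12-fold (limma adjusted p = 0.015) and 1 had a difference of -0.77 (SE 0.30) that was not called. Gng8, which is known from olfactory and vomeronasal neurons, had 0.32 (SE 0.30), and Gng3, Gng10, Gng11 and Gng12 had differences from -0.48 to -0.19. For Gng12, 1 dimmer probe set fell 1.98-fold (limma adjusted p = 0.035) and another had 0.56 (SE 0.35), not called.

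Subunits that could join Gng13 in a G protein were compared in the same way. From 11.5 to 18.5 dpc, 9.14% of all genes tested rose and 8.37% fell. None of 3 beta subunits tested was called by limma in any comparison on its brightest probe set, and none was under an unadjusted p of 0.05 there; Gnb1 had a log2 difference of 0.17 (SE 0.23) between 11.5 and 18.5 dpc. For Gnb4, 1 of its other probe sets fell 3.87-fold (limma adjusted p = 0.044), while the brightest had -0.45 (SE 0.26) and the third -0.29 (SE 0.21). Of 11 alpha subunits tested, Gna11 rose 1.71-fold and Gnaz 2.02-fold, and Gnai2 fell 1.81-fold. The calls of Gna11 and Gnai2 were lost without either sample of 18.5 dpc, that of Gna11 also without either of 11.5 dpc, and that of Gnaz without sample 1 of 18.5 dpc. The other Gnaz probe sets, at 0.75 (SE 0.39) and 0.06 (SE 0.40), were not called. Both other Gnai2 probe sets also fell, by 1.84-fold and 1.53-fold. Dimmer probe sets were called for Gnai1, which rose by a log2 difference of 0.61, and Gnai3, with -0.85. Of 14 genes of taste and smell transduction, where Gng13 is best known, 6 were tested. The guanine nucleotide exchange factor Ric8b fell 3.08-fold (limma adjusted p = 0.001) and the others were not called. Gnat3 and Trpm5 of taste cells had no probe set bearing their symbols. Of 16 regulators of G protein signalling tested, Rgs5, Rgs19 and Ric8b fell and none rose; Rgs5 and Rgs19 each lost the call without 1 sample of 11.5 and 1 of 18.5 dpc. Another Rgs5 probe set fell 3.19-fold, and a dimmer one of Rgs3 by a log2 difference of -1.38.

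Irx5, the neighbour of Irx3 in the cluster and a member of the same family, had no such course. Its signals were 76.8 and 87.2 at 11.5 dpc, 46.0 and 14.8 at 12.5 dpc, 55.0 and 35.1 at 14.5 dpc, 69.7 and 55.8 at 16.5 dpc, then 86.7 and 84.4 at 18.5 dpc. The lowest samples were those of 12.5 and 14.5 dpc, the youngest and oldest ages overlapped, and the whole difference was 0.05 (SE 0.39). At 12.5 dpc, when both Irx3 samples were above 200, both Irx5 samples were among its 3 lowest, and no change of Irx5 between neighbouring ages was called. These signals are near the minimum of 50, where the array is imprecise. Irx1 had a difference of 0.21 (SE 0.56) on its brightest probe set. Its probe set on array B read 68.1 and 73.8 at 12.5 dpc and then 7.6 and 12.1 at 14.5 dpc, a 3.38-fold fall (limma adjusted p = 0.044) that the brightest did not show, with 59.6 and 80.5 and then 82.5 and 79.4. Irx2 stayed below the minimum, and Irx4 and Irx6 had no probe set bearing their symbols.

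The wider homeobox group to which the Iroquois genes belong, named TALE for a loop of 3 added amino acids, held 9 tested genes of 17 listed. From 11.5 to 18.5 dpc none rose and 1 fell, and the median log2 difference was -0.34. Tgif1, a repressor, read 342.6 and 318.3 at 11.5 dpc, then 199.5 and 207.5 at 18.5 dpc, and fell 1.58-fold (limma adjusted p = 0.014), a call lost without either sample of 18.5 dpc. Pbx3, a partner of Hox proteins, read 285.5 and 280.0 at 12.5 dpc, 817.4 and 551.1 at 14.5 dpc, 888.1 and 606.1 at 16.5 dpc, then 250.5 and 303.1 at 18.5 dpc. It rose from 12.5 to 14.5 dpc and fell from 16.5 to 18.5 dpc, and both calls were lost in 8 of the 10 fits that left out a sample. For Pbx3, 1 dimmer probe set also fell from 16.5 to 18.5 dpc (-1.15, limma adjusted p = 0.028), and the other had -0.94 (SE 0.19), not called. From 12.5 to 14.5 dpc they had 0.42 (SE 0.20) and 0.52 (SE 0.19), neither called. Dimmer probe sets fell for Meis1 over the whole course (-1.43) and for Pknox1 from 12.5 to 14.5 dpc (-0.92). In the last interval 0.588% of all genes tested rose and 0.254% fell.

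**Figure D3:**
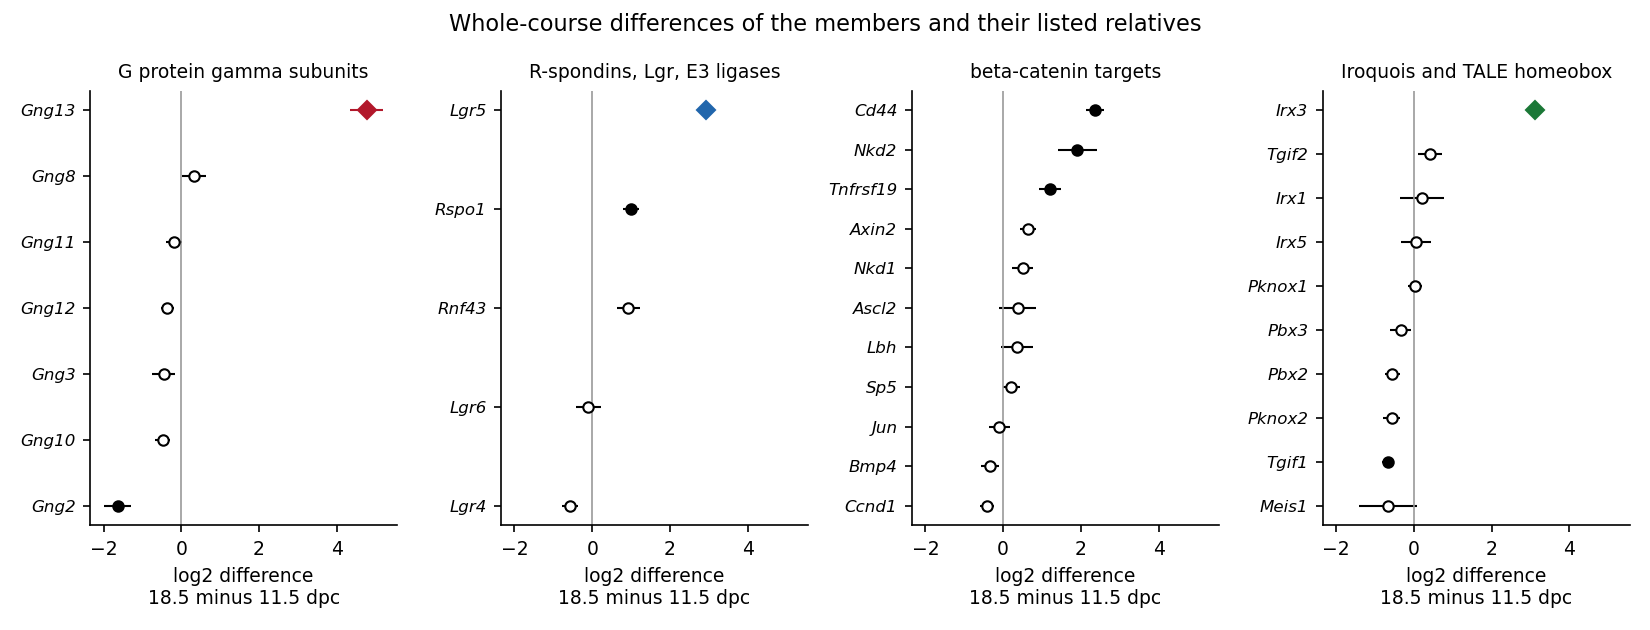
Log2 difference of 18.5 minus 11.5 dpc, with its standard error (n = 2 samples an age), for the tested genes of the 4 lists closest to the members. Coloured diamonds are Gng13, Lgr5 and Irx3, filled circles are listed genes called by limma at an adjusted p under 0.05, and open circles those not called. The members lie at 4.77, 2.93 and 3.11, and the highest of the listed relatives is Cd44.

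Genes beside the members on the chromosome were compared by order in the RefSeq table (GRCm38.p6), a set chosen after the values were seen. Of the 3 nearest protein-coding genes on each side, 4 of 6 were tested for each member. None of the 4 beside Gng13 (Sstr5, Sox8, Lmf1 and Rpusd1) or the 4 beside Lgr5 (Tmem19, Thap2, Zfc3h1 and Ptprr) was called by limma between 11.5 and 18.5 dpc. Their log2 differences ran from -0.06 to 0.13 beside Gng13 and from -0.05 to 0.81 beside Lgr5. Beside Irx3, Fto had -0.18 (SE 0.21) and Rpgrip1l -1.44 (SE 0.66), not called, and Aktip rose 2.71-fold (limma adjusted p = 0.00034). Aktip, which has a role in vesicle transport and telomere copying, read 57.3 to 69.9 up to 12.5 dpc, when Irx3 had made most of its rise, and 222.4 and 193.4 at 18.5 dpc. A dimmer Aktip probe set on array A also rose (log2 difference 0.81, SE 0.24, limma adjusted p = 0.042). The Aktip probe set on array B did not show this (difference -0.06, SE 0.35).

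The genes most like each member in course were found by Pearson's r over the 10 samples within the member's array, among genes whose mean signal reached 100 in 1 or more ages. These r are a description of a course that all such genes share by being ordered by age. Closest to Lgr5, of 4933 probe sets on array A, were Sycp1 (r = 0.993), Ndufb6 (0.987), Ubxn4 (0.987), Fmr1nb (0.985) and Dnajc15 (0.979). Sycp1, which encodes part of the synaptonemal complex of meiotic germ cells, read 7.5 and 13.0 at 12.5 dpc, 404.1 and 239.1 at 14.5 dpc, then 924.9 and 881.9 at 18.5 dpc. Like Lgr5 it was low in all samples before 14.5 dpc, which its choice by likeness to Lgr5 favours. Ndufb6, a subunit of mitochondrial complex I, moved far less, from 632.0 and 649.0 to 1246.0 and 1268.1.

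Closest to Irx3 on array A were Ltbp4 (0.979), Scmh1 (0.979), Atp13a3 (0.979), Ifi27 (0.968) and Igfbp2 (0.963). Igfbp2, which binds insulin-like growth factors, read 214.3 and 366.8 at 11.5 dpc, 974.7 and 752.7 at 12.5 dpc, then 1495.1 and 1526.8 at 18.5 dpc. Ltbp4, which binds latent TGF-beta in the matrix, read 50.1 and 91.2 at 11.5 dpc, 263.8 and 176.6 at 12.5 dpc, then 644.0 and 528.1 at 16.5 dpc. Both were already higher in both samples of 12.5 dpc than at 11.5 dpc, as Irx3 was, which their choice by likeness to Irx3 favours. Closest to Gng13, of 3935 probe sets on array C, were Catsper2 (0.977), Lmbr1 (0.959), Mov10l1 (0.957), Nat9 (0.956) and Egfl6 (0.954). Egfl6, a secreted protein with EGF repeats, read 397.7 and 566.2 at 11.5 dpc, then 4782.5 and 5423.0 at 18.5 dpc, and Mov10l1, a helicase of the germ cell piRNA pathway, 588.9 and 630.3 and then 3566.7 and 3608.0. By Spearman's rho, 1 of the 5 genes for Gng13, 2 of 5 for Lgr5 and none of 5 for Irx3 stayed among the closest 5, so the names depend on the measure.

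**Figure D4:**
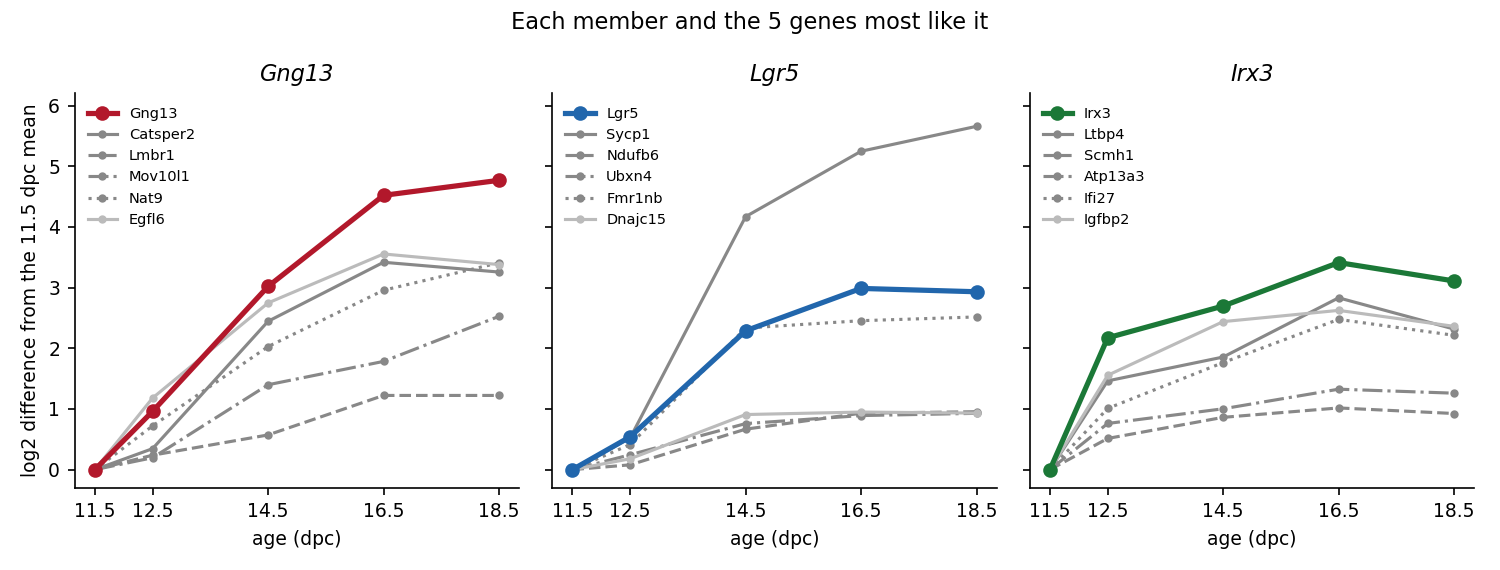
Log2 difference from the 11.5 dpc mean at each age (log2(signal + 16), means of 2 samples) for each member (coloured) and the 5 genes most like it (grey). Likeness follows the shape and not the size: beside Lgr5, Sycp1 ends at 5.66 and Dnajc15 at 0.93.

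The name somatic for these genes comes from what is known of them, and markers of the cells of the ovary moved in several directions beside them. Of 21 tested markers of pregranulosa and other supporting cells, 6 rose from 11.5 to 18.5 dpc and 6 fell, with a median log2 difference of -0.34. Over all genes tested, 9.14% rose and 8.37% fell in that comparison, with a median of 0.02. Foxl2 rose 6.89-fold (limma adjusted p = 8.5e-05) and Fst 4.16-fold (limma adjusted p = 0.0028), with Rspo1, Kitl, Runx1 and Fshr. The other Fst probe set had a difference of 0.48 (SE 0.30) and was not called. Those that fell were Cbx2, Gata4, Inha, Lhx9, Wt1 and Zfpm2, among them Lhx9 at 3.12-fold (limma adjusted p = 0.00099) and Cbx2 at 2.38-fold (limma adjusted p = 0.00086). The other Lhx9 probe set also fell (3.37-fold), that of Cbx2 had -0.30 (SE 0.23), that of Gata4 0.29 (SE 0.29), and those of Zfpm2 -0.41 (SE 0.31) and 1.00 (SE 0.55), none of the last 4 called. Without sample 1 or sample 2 of 18.5 dpc, 6 and 7 of the 21 were called. Foxl2, Fst, Rspo1, Lhx9 and Cbx2 were called with every sample left out in turn, and the other 7 each lost the call without 1 or more samples. The summed array A signal of 18 tested markers of this list was 6790.0 to 7809.3 at 11.5 dpc, 6196.4 to 6293.5 at 14.5 dpc and 6724.7 to 6968.6 at 18.5 dpc.

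In the interval where Irx3 had its main difference, 12.5 against 11.5 dpc, 1 of the 21 supporting cell markers rose and none fell. That was Fst, which rose 5.67-fold (limma adjusted p = 0.028), from 22.7 and 71.0 to 413.3 and 236.0, and lost the call without sample 1 of 11.5 dpc or either sample of 12.5 dpc. The other Fst probe set had a difference of 0.55 (SE 0.30) from 11.5 to 12.5 dpc and was not called. Among markers of other cells, 1 of 13 germ cell markers (Dazl) and 1 of 8 erythroid markers (Hbb-b2) rose in that interval. Both calls were lost without sample 2 of 12.5 dpc. The other Dazl probe set had 0.66 (SE 0.24) and was not called. Over all genes tested, 0.191% rose and 0.0477% fell in that interval. From 14.5 to 16.5 dpc, where Gng13 had 31.5% of its log2 difference, none of the 21 was called by limma, with 10 at an unadjusted p under 0.05. Over all 12589 genes tested 0.334% rose and 0.524% fell, and 2201 were at an unadjusted p under 0.05. Markers of other cells were called in that interval. Of 13 stromal and matrix markers 3 rose, and of 10 surface epithelium markers 1 rose. Those that fell were 5 of 13 germ cell, 3 of 8 erythroid and 1 of 9 testis markers. In the F test over all 5 ages 12 of the 21 markers were called, against 17.8% of all genes tested. That test called 12 of 13 germ cell, 11 of 13 stromal, 6 of 8 erythroid, 6 of 10 surface epithelium and 6 of 11 oocyte markers. It called 4 of 9 testis, 3 of 9 endothelial, 0 of 7 macrophage and 0 of 3 mesonephric markers.

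Surface epithelium markers rose in the interval where Lgr5 had its main difference. Of 10 tested, 6 rose from 12.5 to 14.5 dpc (Aldh1a1, Krt7, Krt8, Krt18, Krt19 and Upk3b), none fell, and the median log2 difference was 1.15. Over all genes tested, 1.6% rose and 0.564% fell there. Markers of other cells were called there too. Of 13 germ cell markers 4 rose (Rec8, Stra8, Sycp1 and Tex101) and 4 fell. Of 13 stromal and matrix markers 2 rose (Dcn and Eln), and of 21 supporting cell markers none rose and 2 fell. The other Eln probe set had -0.36 (SE 0.37) in this interval and was not called. The calls of Dcn and Rec8 were each lost without sample 1 of 12.5 dpc or either sample of 14.5 dpc, that of Rec8 also without sample 2 of 12.5 dpc. Krt19, a keratin, read 48.4 and 68.2 at 12.5 dpc, then 261.1 and 252.2 at 14.5 dpc, and Aldh1a1, a retinaldehyde dehydrogenase, read 489.2 and 581.5 and then 2033.9 and 1899.3. The other Krt19 probe set did not show this step: it had 0.34 (SE 0.36) from 12.5 to 14.5 dpc and 1.03 (SE 0.36) in each of the next 2 intervals, none of them called, and rose over the whole course (limma adjusted p = 0.0011). The calls of Krt19 and Aldh1a1 held with every sample left out in turn, and the calls of Krt7, Krt8, Krt18 and Upk3b were lost without any 1 of the 12.5 or 14.5 dpc samples, that of Krt7 also without either of 18.5 dpc. The summed signal of 8 markers on array A was 1533.9 to 2037.0 at 11.5 dpc, 1651.3 to 1738.5 at 12.5 dpc, 4502.0 to 4596.8 at 14.5 dpc, 4883.9 to 5666.6 at 16.5 dpc and 5883.1 to 6134.9 at 18.5 dpc. The part of the surface epithelium in the Lgr5 values was not tested.

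Markers of other cells also moved. From 11.5 to 18.5 dpc, 9.14% of all genes tested rose and 8.37% fell. Of 13 germ cell markers tested, 6 rose and 4 fell in that comparison, and of 11 oocyte markers 7 rose and none fell. Of those 7, Gdf9, Taf4b and Zp2 lost the call without sample 1 of 11.5 dpc or either sample of 18.5 dpc, which left 4, although dimmer probe sets of Taf4b and Zp2 were called as well. The summed oocyte signal was 284.6 to 393.6 at 16.5 dpc and 1211.1 to 1407.5 at 18.5 dpc, an interval in which the samples of each of the 3 members overlapped or were lower at the later age. Of 13 stromal and matrix markers 5 rose and 2 fell, and their sum was 4353.2 to 4355.0 at 14.5 dpc and 5935.5 to 8890.3 at 16.5 dpc. Of 3 tested markers of the mesonephros, the neighbouring duct tissue, none was called in any comparison on its brightest probe set. The transcription factor gene Gata3, also used as a mesonephric marker, differed between probe sets: on array C, the brightest, it had -1.20 (SE 0.51), not called, and on array A it rose 2.23-fold (limma adjusted p = 0.036), from 18.5 and 24.1 at 11.5 dpc to 68.9 and 64.9 at 18.5 dpc. The sum over 2 of the markers on array A stayed between 52.4 and 133.5. The defining mesonephric genes Pax2 and Pax8 were too low to be tested. The Gapdh control's 3 prime signal over its 5 prime signal, a sign of RNA quality, also moved with age: on array A it was 0.798 to 0.812 at 11.5 dpc and 1.03 to 1.08 at 18.5 dpc, and on array C 0.855 to 0.994 and 1.06 to 1.08, with 0.991 and 1.28 at 16.5 dpc. The part of these other cells and of RNA quality in the members' values was not tested.

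**Figure D5:**
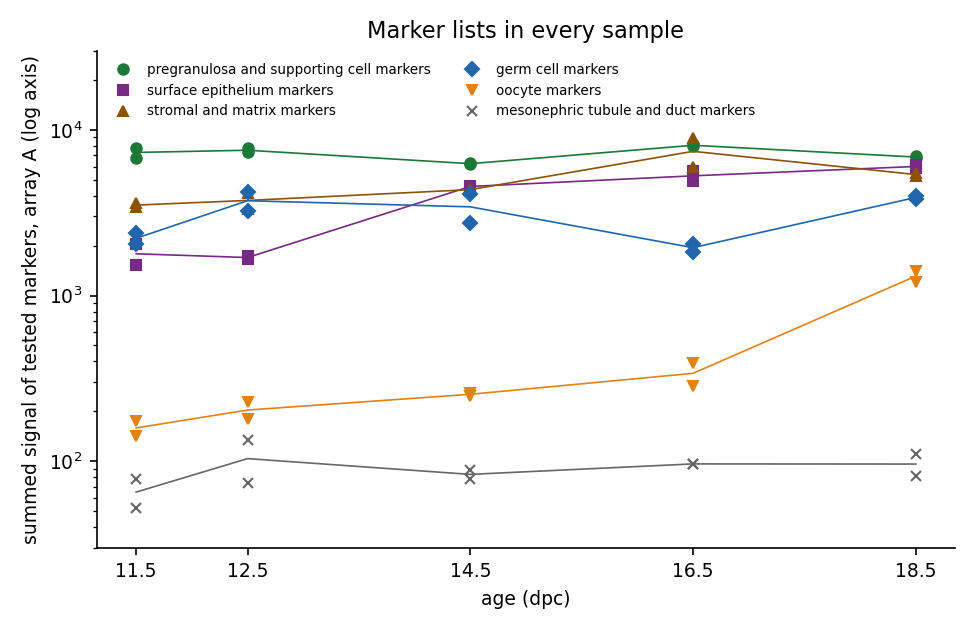
Summed signal of the tested markers of 6 lists on array A in every sample (log axis) against age in dpc, with lines through the means of 2 samples. The surface epithelium sum steps up between 12.5 and 14.5 dpc, the oocyte sum between 16.5 and 18.5 dpc, and the supporting cell sum stays between 6196.4 and 8191.3.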

How the data were processed

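Each array gave 1 deposited signal intensity per probe set, scaled by the authors to a mean of 125, per the labels. The software used was not given in the sources used here. Detection calls were not used. Names came from the platform annotation (29131 probe sets with 1 symbol, 724 with several, 6846 with none). Signals were analysed as log2(signal + 16), and probe sets with a signal of at least 50 on 2 of 10 arrays were tested, 24825 in all. Each array type had its own model of the 5 ages in limma 3.58.1 under R 4.3.3 (lmFit, eBayes with trend), tested on simulated data, and p-values were adjusted by Benjamini-Hochberg over the 3 types together, called under 0.05. The tested probe set of highest mean log2 signal stood for a gene. The number of arrays, 2 an age, limits the precision. The 3 genes and the gene lists were chosen with earlier results of these data known. Genes were named from the fixed lists where called or where they are close relatives of a member, and as the 5 most like each member. The sample numbers were not used as pairs in the main model. The correlation of same-numbered deviations passed 0.1 in 1 of 30 pairs of ages, and on array A it ran from -0.161 to 0.219. With 2 samples an age this cannot show that the numbers carry no pairing. The alternatives were another offset, quantile scaling, other filters, no trend, a replicate block, adjustment within an array type, any probe set of a gene, and leaving out each sample.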

Additional observations from a re-analysis of the deposited data

How the results depend on the processing

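The whole differences of Gng13, Lgr5 and Irx3 kept their direction under every alternative run. With an offset of 64 they were 3.91, 1.71 and 2.40, and with an offset of 4 that of Lgr5 was 3.79. Leaving out a sample gave 4.54 to 4.99 for Gng13, 2.88 to 2.98 for Lgr5 and 2.77 to 3.45 for Irx3. Between 16.5 and 18.5 dpc the sign turned for Gng13 without sample 1 of 16.5 dpc (-0.457, against 0.953 without sample 2) and for Lgr5 without sample 2 (0.11, against -0.221 without sample 1).

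Counts of called genes moved more. For 12.5 against 11.5 dpc the 30 genes became 15 with quantile scaling, 4 with no filter on low signal, 1 without the intensity trend and 17 with the replicate number as a block, and 1 to 328 with a sample left out, the highest without sample 2 of 11.5 dpc. Without the trend the 273 genes of 14.5 against 12.5 dpc became 165, the 108 of 16.5 against 14.5 dpc 42 (61 with no filter), the 106 of 18.5 against 16.5 dpc 69, and the 2236 of the F test 1413. Leaving out a sample gave 83 to 531, 21 to 358, 24 to 170 and 1145 to 2754 for these, and 982 to 2152 for the 2205 genes of 18.5 against 11.5 dpc. The block moved no other count by over 1.5 times.

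For 18.5 against 11.5 dpc, the R-spondin and Lgr list had 2 calls with no filter or with a filter at a signal of 100, and 1 to 3 with a sample left out. The beta-catenin targets had 5 with any probe set of a gene and 1 to 4 with a sample left out. The gamma subunits had 2 with any probe set and 0 to 1 with a sample left out. The Iroquois and TALE list had 2 with quantile scaling, no filter, adjustment within an array type or any probe set, and 0 to 1 with a sample left out. The supporting cell markers had 6 to 12 with a sample left out. The cause of these moves was not tested. Signals under 50, as of Lgr5 before 14.5 dpc and of Gng13 at 11.5 dpc, are low on these arrays and limit how well the folds are known.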
